A study of Mus musculus with 2 samples.

Results

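The sodium pump and the calcium pumps are represented here by 7 genes of the mouse brain: the sodium pump beta subunits Atp1b1, Atp1b2 and Atp1b3, the calcium pump of the endoplasmic reticulum Atp2a2, and the calcium pumps of the plasma membrane Atp2b1, Atp2b2 and Atp2b4. They were listed by name and not by a rule on their values, although earlier results of these data were known. All 7 were found among the 45578 genes of the deposited table. The table counts ribosome footprints, the short RNA fragments that a ribosome shields from nuclease, for each annotated transcript. Each gene is represented by the transcript with the highest count summed over both libraries. The material was brain of control mice at postnatal day 5, in 1 group of 2 samples labelled as biological replicates. These mice, of the Taiwanese spinal muscular atrophy strain on an FVB background, had the genotype Smn+/-; SMN2tg/0, so every sample lacked 1 functional copy of the mouse Smn gene and carried the human SMN2 transgene. The ribosomes were captured with RiboLace, beads with a puromycin-like molecule that binds ribosomes engaged in translation. The design text speaks of a mouse in the singular, and where the replicates were not separate animals, the spread between them is technical.

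The sodium pump exchanges sodium inside the cell for potassium outside at the cost of ATP, and it is a major consumer of energy in the brain. Its catalytic alpha subunit, not analysed here, needs a glycosylated beta subunit to fold, leave the endoplasmic reticulum and reach the cell surface, and the beta subunit also tunes the affinity of the pump for potassium. Calcium pumps are single-chain ATPases that keep cytosolic calcium low. SERCA pumps, such as the product of Atp2a2, refill the store in the endoplasmic reticulum. PMCA pumps, the products of the Atp2b genes, expel calcium across the plasma membrane and are activated by calmodulin.

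The gene-level total was 343552 counts in replicate 1 and 120282 in replicate 2, a difference in depth of 2.86-fold. After TMM scaling, which sets a common scale from the bulk of genes, 1 count was worth 2.71 CPM (counts scaled to a common library size) in replicate 1 and 8.93 CPM in replicate 2. A count of 0 allows up to 3 counts, which is 8.13 CPM and 26.8 CPM. Neuronal markers were counted in both libraries for 8 of 8 genes, with a summed level of 7187 and 8349 CPM, and astrocyte and radial glia markers for 7 of 7, with 2282 and 2724 CPM. Oligodendrocyte markers summed to 672 and 759 CPM and Purkinje cell markers to 271 and 366 CPM. Choroid plexus markers summed to 1111 and 1438 CPM, of which Ttr held 1070 and 1366 CPM. Red blood cell markers summed to 1927 and 2161 CPM, of which Hba-a1 held 929.5 and 1080.5 CPM and Hba-a2 981.0 and 1071.6 CPM. Fragments that match both globin genes may have been counted for each, and their share was not tested. Smooth muscle markers summed to 111 and 134 CPM, of which Acta2 held 100 and 125 CPM, while Cnn1 was at 0 in both libraries. Of 6 markers of heart and skeletal muscle, Myl2, Tnnt2 and Ckm were at 0 in both libraries. Acta1, like Acta2 an actin with near-identical paralogs, held most of the counts of that list. In whole brain, fewer cells of a type and less RNA per cell cannot be told apart, and with footprints alone neither can more messenger RNA and more ribosomes per messenger RNA.

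Together the 7 genes held 968 counts, or 0.282% of the gene total, in replicate 1 (Wilson 95% interval 0.265 to 0.300). In replicate 2 they held 309 counts, or 0.257% (0.230 to 0.287). The 3 beta subunits held 0.137% ± 0.00088 (SD, n = 2) and the 4 calcium pumps 0.133% ± 0.018 (SD, n = 2). In replicate 1 the beta subunits held 0.136% and the calcium pumps 0.146%. In replicate 2 they held 0.137% and 0.120%, the opposite order, with overlapping Wilson intervals in each library. Similar mean shares do not mean equal densities, because the coding sequences of the beta subunits are much shorter. To compare genes, counts were divided by the length of the coding sequence of the most counted protein-coding isoform, which gives a footprint density in CPM per kilobase of coding sequence (CPM/kb). Summed over the genes, the density of the beta subunits was 1397 CPM/kb in replicate 1 and 1646 CPM/kb in replicate 2, and that of the calcium pumps 403 and 372 CPM/kb. All intervals on single values cover counting error only, and they take every count as an independent molecule. PCR copies without molecular identifiers are not independent, so the intervals may be too narrow.

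Atp1b1 encodes the beta 1 subunit, the general form of the brain and most other tissues, and it had the highest density of the 7 genes in both libraries. Its gene (ENSMUSG00000026576) lies on chromosome 1 at chr1:164437099-164458355 in the RefSeq annotation of GRCm38.p6. The isoform Atp1b1-001 has a coding sequence of 915 nucleotides, for 304 residues, within a transcript of 2580. It had 330 counts in replicate 1 and 125 in replicate 2. The density was 977 CPM/kb in replicate 1 (95% exact Poisson interval 875 to 1089) and 1220 CPM/kb in replicate 2 (1015 to 1453), or 1099 ± 172 (SD, n = 2). The counting intervals of the libraries overlapped, and replicate 2 was the higher.

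Atp1b2 encodes the beta 2 subunit, also known as the adhesion molecule on glia. Its gene (ENSMUSG00000041329) spans 6251 nucleotides at chr11:69599728-69605978. The coding isoform Atp1b2-001, with 873 coding nucleotides for 290 residues, had 109 counts in replicate 1 and 26 in replicate 2. This gave 338 CPM/kb (278 to 408) and 266 CPM/kb (174 to 390), or 302 ± 51.2 (SD, n = 2), the second highest density in both libraries. Here replicate 1 was the higher, opposite to Atp1b1, again with overlapping intervals. Atp1b1 stood above Atp1b2 by 2.89-fold in replicate 1 (95% exact interval of the ratio 2.32 to 3.62) and by 4.59-fold in replicate 2 (2.99 to 7.29).

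Atp1b3 encodes the beta 3 subunit, a widely expressed form. Its gene (ENSMUSG00000032412) lies at chr9:96332655-96364431, and its isoform Atp1b3-001 has 837 coding nucleotides for 278 residues. With 25 counts in replicate 1 and 15 in replicate 2 it was the least counted of the 7 genes in sum. The densities were 80.9 CPM/kb (52.4 to 119) and 160 CPM/kb (89.6 to 264), or 120 ± 55.9 (SD, n = 2), the widest relative spread of the 7 genes. Atp1b1 exceeded it by 12.1-fold in replicate 1 (8.04 to 18.9) and by 7.62-fold in replicate 2 (4.45 to 14.0). The excess of Atp1b2 over Atp1b3 was 4.18-fold in replicate 1 (2.69 to 6.74) but 1.66-fold in replicate 2, with an interval from 0.848 to 3.38 that includes 1.

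As a share of all beta subunit footprints, Atp1b1 held 71.1% in replicate 1 (Wilson 95% limits 66.8 and 75.1) and 75.3% in replicate 2 (68.2 to 81.2). Atp1b2 held 23.5% (19.9 to 27.6) and 15.7% (10.9 to 22.0), and Atp1b3 held 5.39% (3.68 to 7.83) and 9.04% (5.55 to 14.4). The order beta 1, beta 2, beta 3 was the same in both libraries, and the interval of each share overlapped between them.

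Atp2a2 encodes SERCA2, the general SERCA pump, which is also the pump of heart muscle. Its gene (ENSMUSG00000029467) lies at chr5:122453513-122502225. The isoform Atp2a2-001, with 3135 coding nucleotides for 1044 residues, had 237 counts in replicate 1 and 60 in replicate 2. The density was 205 CPM/kb (180 to 233) and 171 CPM/kb (130 to 220), or 188 ± 24.0 (SD, n = 2), which placed it highest among the calcium pumps in both libraries. The other SERCA genes were barely counted: Atp2a1, the pump of fast skeletal muscle, had 0 counts in both libraries, and Atp2a3, known from blood cells and Purkinje cells, had 1 count in each. The small membrane proteins that inhibit SERCA in muscle, Pln and Sln, had 0 counts in both libraries, and Mrln, annotated here as a long non-coding RNA, had 1 count in replicate 1 and 0 in replicate 2.

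Atp2b1 encodes PMCA1, the general plasma membrane pump. Its gene (ENSMUSG00000019943) lies at chr10:98914630-99026143 and has a single annotated transcript in the table, with 3663 coding nucleotides for 1220 residues. Its 154 counts in replicate 1 and 47 in replicate 2 gave 114 CPM/kb (96.6 to 133) and 115 CPM/kb (84.2 to 152). These values were nearly equal, at 114 ± 0.456 (SD, n = 2), a spread far below their own counting intervals.

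Atp2b2 encodes PMCA2, known for its high level in Purkinje cells and the hair cells of the inner ear. The gene (ENSMUSG00000030302) is the longest of the 7, with 298783 nucleotides at chr6:113743831-114042613. Its isoform Atp2b2-004, with 3597 coding nucleotides for 1198 residues, was counted 80 times in replicate 1 and 23 times in replicate 2, which gave 60.3 CPM/kb (47.8 to 75.01) and 57.1 CPM/kb (36.2 to 85.7), with a mean of 58.7 ± 2.24 (SD, n = 2). PMCA2 footprints were less dense than those of PMCA1 by 1.89-fold in replicate 1 (1.43 to 2.51) and 2.01-fold in replicate 2 (1.19 to 3.46).

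Atp2b4 encodes PMCA4, a widely expressed form. Its gene (ENSMUSG00000026463) lies at chr1:133702674-133801059. The isoform Atp2b4-202, with 3618 coding nucleotides for 1205 residues, was counted 32 times in replicate 1 and 12 times in replicate 2, which gave 24.0 CPM/kb (16.4 to 33.8) and 29.6 CPM/kb (15.3 to 51.7), with a mean of 26.8 ± 3.99 (SD, n = 2). It was the lowest of the 7 genes in both libraries. PMCA1 exceeded it by 4.75-fold in replicate 1 (3.23 to 7.19) and 3.87-fold in replicate 2 (2.02 to 8.01), while the excess of PMCA2 was 2.51-fold (1.65 to 3.92) and 1.93-fold, the last with an interval from 0.921 to 4.25.

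The remaining PMCA gene, Atp2b3, which encodes the mainly neuronal PMCA3, had 33 and 6 counts, or 25.4 and 15.2 CPM/kb. Of all PMCA footprints Atp2b1 held 51.5% in replicate 1 (45.9 to 57.1) and 53.4% in replicate 2 (43.1 to 63.5), and Atp2b2 held 26.8% (22.1 to 32.0) and 26.1% (18.1 to 36.2). Atp2b4 held 10.7% (7.68 to 14.7) and 13.6% (7.98 to 22.3), and Atp2b3 held 11.0% (7.97 to 15.1) and 6.82% (3.16 to 14.1). The mix of PMCA1 and PMCA2 was thus nearly the same in the libraries, while the order of PMCA3 and PMCA4 was opposite, with overlapping intervals. The 4 PMCA genes are paralogs, and fragments that match more than 1 of them may have been counted for each; their share was not tested.

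**Figure D1:**
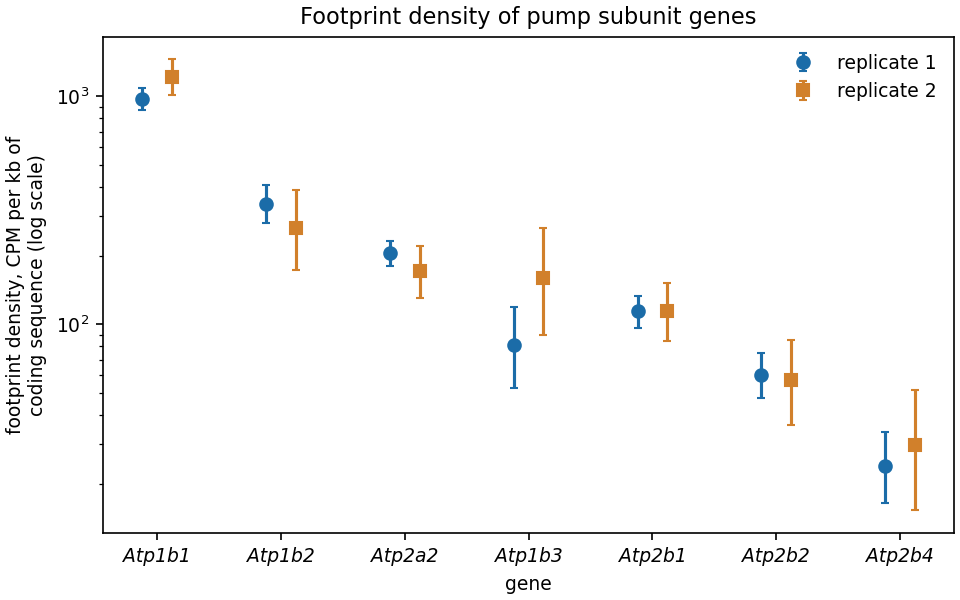
Footprint density in CPM per kilobase of coding sequence (vertical axis, log scale) of the 7 pump subunit genes (horizontal axis), in replicate 1 (circles) and replicate 2 (squares), with bars for the 95% exact Poisson intervals of the counts. Atp1b1 stands at 977 and 1220 CPM/kb, above every other gene, and Atp2b4 is lowest at 24.0 and 29.6 CPM/kb.

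By mean density the order was Atp1b1, Atp1b2, Atp2a2, Atp1b3, Atp2b1, Atp2b2 and Atp2b4. The libraries gave the same order apart from Atp1b3 and Atp2b1, which exchanged ranks 4 and 5. Of the 21 pairs of members, 15 had a ratio whose exact counting interval lay above 1 in both libraries. Atp1b1 was separate in this way from the other 6 genes. The 6 pairs that were not separate were Atp1b3 with Atp1b2, with Atp2a2, with Atp2b1 and with Atp2b2, then Atp1b2 with Atp2a2, and Atp2b2 with Atp2b4. Among neighbours in the order, Atp1b2 exceeded Atp2a2 by 1.65-fold in replicate 1 (1.30 to 2.08) and by 1.56-fold in replicate 2 (0.943 to 2.50). Atp2a2 exceeded Atp2b1 by 1.80-fold (1.46 to 2.22) and 1.49-fold, the last only just, with an interval from 1.001 to 2.23. Atp2b1 stood at 1.41 times Atp1b3 in replicate 1 (0.918 to 2.24) and at 0.716 times in replicate 2 (0.393 to 1.38), so their order could not be given at this depth. These intervals were not adjusted for the 21 pairs, and a permutation over 2 libraries cannot give a p below 0.5, so no such test was used.

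Density per coding length treats every footprint as lying in the coding sequence. When counts were divided by the length of the whole transcript instead, Atp1b1 stayed highest at 390 CPM per kilobase of transcript and Atp2b4 lowest at 11.97. On that scale Atp2a2, at 131, passed Atp1b2, at 92.8, and Atp2b1, at 58.7, passed Atp1b3, at 50.6. Both exchanges concern pairs that were not separate per coding length. Atp1b2 and Atp2b1, separate per coding length, were not separate per transcript length, while Atp2b2 and Atp2b4 became separate.

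Among the 4354 protein-coding genes whose coding isoform averaged 10 or more counts, the median density was 62.4 CPM/kb in replicate 1 and 59.96 CPM/kb in replicate 2. Atp1b1 was denser than 98.1% of these genes in replicate 1 and 98.5% in replicate 2. Atp1b2 was denser than 90.4% and 87.1%, and Atp2a2 than 82.8% and 79.7%. Atp2b1 stood at percentile 69.1 and 69.9, and Atp1b3 at 58.8 and 78.1, the largest shift between the libraries. Atp2b2 lay close to the median gene, at percentile 48.8 and 48.4, and Atp2b4 lay below it, at 17.9 and 26.6. The count filter removes genes of low density, so the percentiles depend on it: among coding genes with at least 1 count in each library, Atp2b2 stood at percentile 76.5 by mean density and Atp2b4 at 56.5.

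**Figure D2:**
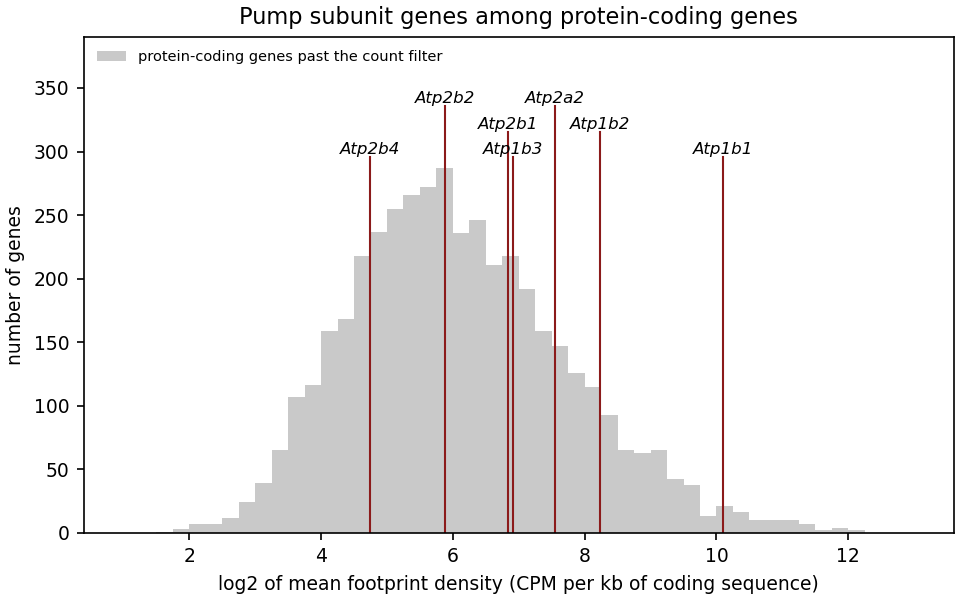
Number of protein-coding genes (vertical axis) by log2 of the mean footprint density over both libraries in CPM per kilobase of coding sequence (horizontal axis), for 4354 genes past the count filter, with a line for each of the 7 pump subunit genes. Atp1b1 lies in the upper tail, Atp2b2 near the peak and Atp2b4 below it.

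Raw abundance gives another order, because a long coding sequence collects more footprints at the same density. In CPM of the most counted transcript, Atp1b1 stood at 1005 ± 157, Atp2a2 at 589 ± 75.3, Atp2b1 at 419 ± 1.67, Atp1b2 at 263 ± 56.8, Atp2b2 at 217 ± 8.39, Atp1b3 at 101 ± 46.8 and Atp2b4 at 96.9 ± 14.5 (each SD, n = 2). SERCA2 and PMCA1 were thus above the beta 2 subunit in mean footprints per gene, although below it in mean footprints per coding length. Per coding length, SERCA2 and the beta 2 subunit were not separate.

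The table lists 33 annotated transcripts of the 7 genes: 17 protein coding, 9 processed transcripts without a coding sequence, 5 with a retained intron and 2 marked for nonsense-mediated decay. Fragments appear to have been counted for each isoform that they match, so counts of isoforms overlap and do not add up. For 5 of the genes the most counted transcript was protein coding. For Atp1b2 it was Atp1b2-003, a processed transcript of 3751 nucleotides with 112 and 25 counts, against 109 and 26 counts for the coding isoform Atp1b2-001. For Atp2b2 the transcripts Atp2b2-002, marked for nonsense-mediated decay, and Atp2b2-004 tied at 103 counts in sum, and the longer of them, Atp2b2-002, had 78 and 25 counts. In both cases the difference was at most 3 counts per library.

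SERCA2 is known in a longer, general form, SERCA2b, and a shorter muscle form, SERCA2a, which differ at the C-terminal end. The table holds coding isoforms of 1044 residues (Atp2a2-001) and 998 residues (Atp2a2-002), without naming their form. Atp2a2-001 had 237 and 60 counts, and Atp2a2-002 had 200 and 47, which is 84.4% (95% Wilson interval 79.2 to 88.5) and 78.3% (66.4 to 86.9) of the former. The coding sequence of Atp2a2-002 is 95.6% as long, above both intervals. The Wilson intervals of isoform counts, here and below, treat the smaller count as a part of the larger, which the isoform counts do not show. The extra 37 and 13 counts of Atp2a2-001 fall on a transcript with 330 more nucleotides of 5′ untranslated region, 138 more of coding sequence and 34 more of 3′ untranslated region. The table does not divide them between these regions. Atp2a2-003, with the same coding length as Atp2a2-001 and 1239 more nucleotides of 3′ untranslated region but 51 fewer of 5′ untranslated region, had 15 and 3 counts fewer.

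Among the beta subunits, the shorter coding isoform Atp1b1-003 holds 43.4% of the coding length of Atp1b1-001 and had 42.7% (37.5 to 48.1) and 37.6% (29.6 to 46.3) of its counts, a share close to that of its length. Its 397 coding nucleotides are not a whole number of codons, and it has no annotated 3′ untranslated region, so its annotation may be incomplete. The shorter isoform Atp1b2-002 holds 47.1% of the coding length of Atp1b2-001 but had 18.3% (12.2 to 26.6) and 23.1% (11.0 to 42.1) of its counts, below its share of length in both libraries. Atp1b2-005, a processed transcript of 711 nucleotides, had 56.0% (46.6 to 64.9) and 57.7% (38.9 to 74.5). The footprints of Atp1b2 were unevenly spread over its annotated isoforms, in the same way in both libraries. Atp1b2-002 has no annotated 5′ untranslated region, so its annotation may be incomplete too. Whether the coding part of Atp1b2-002 lies wholly within that of Atp1b2-001 is not given by the table.

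The full-length isoforms of Atp2b2 differed little in counts. The 3 protein-coding transcripts of Atp2b2, of 1198, 1198 and 1243 residues, and its decay transcript had between 74 and 80 counts in replicate 1 and between 23 and 27 in replicate 2, against 30 and 10 for the retained-intron transcript Atp2b2-005 and at most 3 per library for Atp2b2-006 and Atp2b2-007. Atp2b2-003, the isoform of 1243 residues, had the lowest of these counts in replicate 1 and the highest in replicate 2, so the libraries gave no common order. For Atp2b4, Atp2b4-001 has the same coding length as Atp2b4-202 and 3624 more nucleotides of untranslated sequence, and had 29 and 10 counts against 32 and 12. Atp2b4-002, with 91.9% of the coding length and no annotated untranslated region, had 65.6% (48.3 to 79.6) and 58.3% (32.0 to 80.7) of the counts of Atp2b4-202. Atp2b4-203, a fragment of 243 coding nucleotides, had 0 counts in both libraries.

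**Figure D3:**
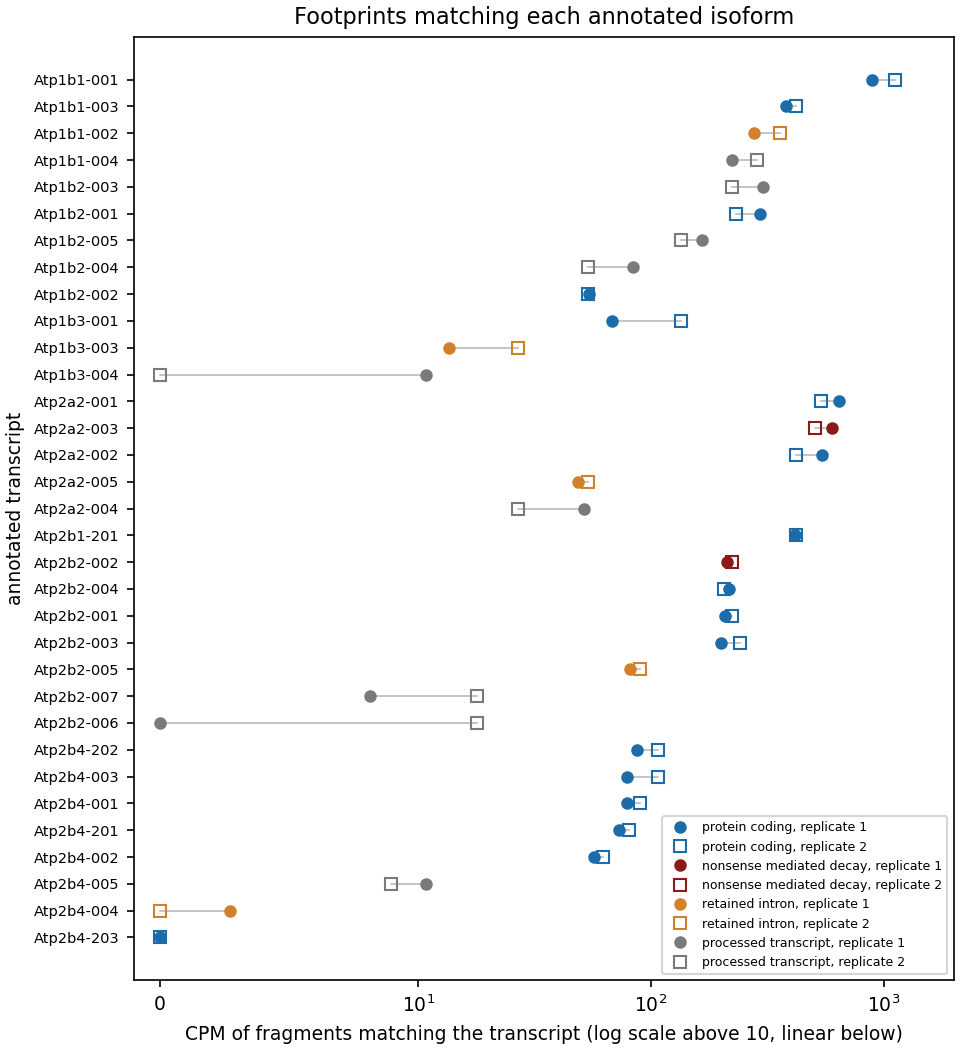
CPM of the fragments that match each of the 33 annotated transcripts of the 7 genes (horizontal axis, logarithmic above 10 CPM and linear below), in replicate 1 (filled circles) and replicate 2 (open squares), coloured by transcript class. The coding isoforms of Atp2b2 lie close together, while Atp1b2-002 lies below Atp1b2-001 in both libraries.

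None of the 7 genes passed the threshold of 0.05 for the Benjamini-Hochberg adjusted p when the replicates were compared with a 2-sided exact binomial test. The test was run on the 5436 genes that averaged 10 or more counts, and all 7 were among them. Over all genes tested the test called 4.14%, and over the 4392 protein-coding genes 0.956%, so a share of 0 among 7 genes does not stand apart from that background. The calls over all genes were mostly in 1 direction, with 217 higher in replicate 2 and 8 lower, and the cause was not tested. The test compares the reads of these libraries and no conditions. At an unadjusted p under 0.05 it gave 2 of the 7 genes, against 9.6% of all genes and 5.62% of protein-coding genes. These were Atp1b1, with a log2 ratio, taken as replicate 2 over 1 after adding 1 CPM to each, of 0.32 (counting SE 0.15, exact binomial p = 0.0399, adjusted p = 0.459), and Atp1b3, with 0.97 (SE 0.47, exact binomial p = 0.0396, adjusted p = 0.459). A negative binomial exact test of edgeR with a preset coefficient of variation of 0.2, which called 2.41% of all genes, also called 0 of the 7. Only when the isoforms of a gene were summed was Atp1b1 called, with a log2 ratio of 0.36 and an adjusted exact binomial p of 0.0200; that sum counts the same fragment more than once, and it led to calls for 7.23% of the 8366 genes tested.

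The other ratios were smaller than their counting error allowed to distinguish. Atp1b2 had a log2 ratio of -0.44 (SE 0.32) and Atp2a2 one of -0.26 (SE 0.21), both lower in replicate 2. Atp2b4 had 0.30 (SE 0.49), Atp2b2 0.078 (SE 0.33) and Atp2b1 0.0081 (SE 0.24). The median over the 7 genes was 0.078, beside 0.0041 over all tested genes and -0.016 over protein-coding genes. In fold terms, Atp2b1 stood at 1.01 (95% exact interval 0.709 to 1.40) and Atp2a2 at 0.834 (0.618 to 1.11). Atp1b3 and Atp2b4, with the fewest counts, had intervals from 0.969 to 3.90 and from 0.580 to 2.46.

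**Figure D4:**
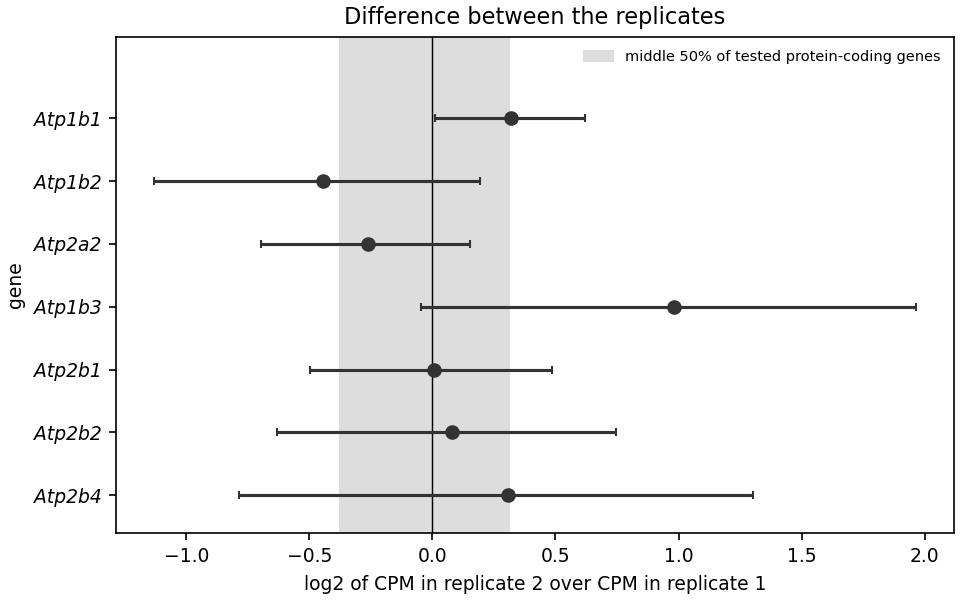
Log2 of the CPM in replicate 2 over that in replicate 1 (horizontal axis, no pseudocount) for the 7 genes (vertical axis), with bars for the 95% exact counting interval; the grey band holds the middle 50% of tested protein-coding genes. The intervals of 6 genes include 0, and that of Atp1b1 begins just above it at a fold of 1.01.

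Genes that work with the pumps were taken from a list of 56, of which 54 were matched and 23 averaged 10 or more counts. None of the 23 was called between the libraries by the exact binomial test, in either direction, against 4.14% of all genes and 0.956% of protein-coding genes. None had an unadjusted p under 0.05, against 9.6% of all genes and 5.62% of protein-coding genes. Their median log2 ratio was 0.091, with 15 above 0 and 8 below.

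FXYD proteins are small membrane proteins that bind the sodium pump and adjust its affinity for ions. Of 7 FXYD genes, Fxyd6 and Fxyd7, the forms known from brain, passed the count filter. Fxyd6 had 101 and 41 counts and a density of 1123 CPM/kb ± 229 (SD, n = 2), and Fxyd7 had 46 and 19 counts and 606 CPM/kb ± 131 (SD, n = 2). Fxyd6 was thus at the level of Atp1b1 per coding length, within the spread of the replicates. Its coding sequence of 285 nucleotides makes up a small part of a transcript of 1791, so footprints outside the coding sequence weigh more in this density than in that of a long gene. Fxyd1, a form known from astrocytes and choroid plexus, had 2 and 3 counts. Fxyd2, a kidney form, had 1 and 0, Fxyd5 had 0 and 1, and Fxyd3 and Fxyd4 had 0 in both. Of the Nkain genes, whose products bind the beta subunit, Nkain1 passed the filter with 19 and 6 counts and 84.2 CPM/kb ± 2.37 (SD, n = 2). Atp1b4, a beta-like gene of muscle, had 0 counts in both libraries.

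Among PMCA partners, Bsg and Nptn encode immunoglobulin-class proteins that associate with the pumps as auxiliary subunits. Bsg stood at 300 CPM/kb ± 40.4 and Nptn at 186 CPM/kb ± 39.8 (each SD, n = 2), both above the mean density of each PMCA gene. Sodium-calcium exchangers remove calcium at high capacity beside the PMCA pumps. Slc8a1 had 103 and 21 counts and 80.1 CPM/kb ± 22.2, and Slc8a2 had 82 and 22 counts and 75.7 CPM/kb ± 6.59 (each SD, n = 2), between the densities of Atp2b1 and Atp2b2. Slc24a3, a potassium-dependent exchanger, stood at 51.4 CPM/kb ± 5.48 (SD, n = 2). Slc24a2, of the same family, had 13 and 0 counts and fell below the filter. Its summed isoforms, with 54 and 3 counts, passed the exact binomial threshold (log2 ratio -2.30, adjusted p = 0.0148). Such a sum counts the same fragment more than once, and it led to calls for 7.23% of the 8366 genes tested.

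Beside SERCA2, the calcium store of the endoplasmic reticulum was represented by release channels and buffers. The release channels Itpr1, with 26 and 14 counts, and Ryr2, with 18 and 5, had densities of 11.8 CPM/kb ± 4.68 and 3.13 CPM/kb ± 0.196 (each SD, n = 2), the lowest of the 23 genes. Their coding sequences are 8250 and 14901 nucleotides long. The sensors Stim1 and Stim2 and the channels Orai1, Orai2 and Orai3, which refill the store, were all below the count filter. Calr, a calcium buffer in the lumen, had 223 and 73 counts and 502 CPM/kb ± 26.9, and the chaperones Canx and Hspa5 stood at 307 ± 41.8 and 172 ± 6.34 (each SD, n = 2). All 7 genes of the buffer and chaperone group passed the filter, with densities from 57.1 to 502 CPM/kb. Of the mitochondrial uptake genes, 4 of 6 passed, from 39.4 CPM/kb for Micu2 to 294 CPM/kb for Smdt1, the essential small subunit of the uniporter. Atp2c1, the calcium and manganese pump of the Golgi, stood at 25.4 CPM/kb ± 5.32 (SD, n = 2), close to Atp2b4.

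**Figure D5:**
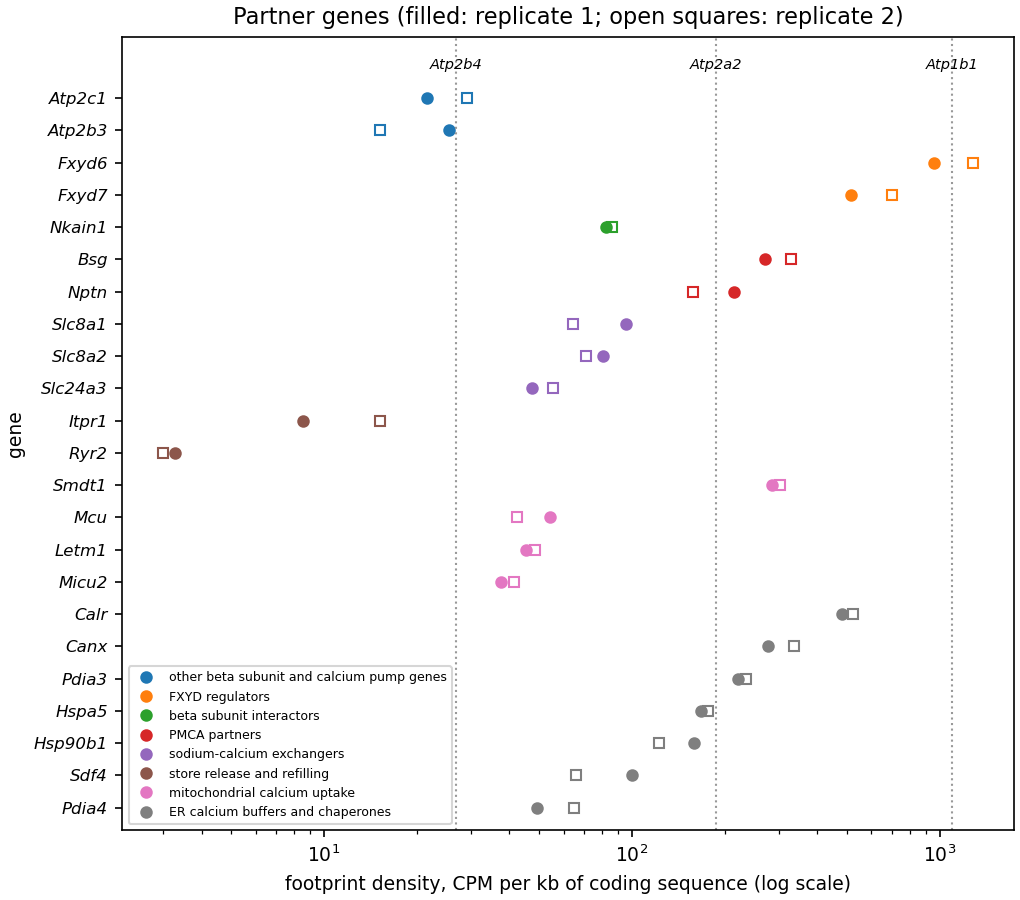
Footprint density in CPM per kilobase of coding sequence (horizontal axis, log scale) of the 23 partner genes past the count filter (vertical axis), in replicate 1 (filled circles) and replicate 2 (open squares), coloured by group, with dotted lines at the mean densities of Atp2b4, Atp2a2 and Atp1b1. Fxyd6 lies at the line of Atp1b1, and Itpr1, Ryr2 and Atp2b3 lie left of the mean line of Atp2b4 in both libraries. In replicate 1 Atp2b3, at 25.4 CPM/kb, was above Atp2b4 itself, at 24.0 CPM/kb.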

How the data were processed

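The authors deposited 1 table of footprint counts per transcript, whole numbers that are not normalised, for 109463 transcripts of 45578 genes, with the lengths of their regions. Per the labels' protocols, fragments of 25 to 35 nucleotides were selected. The submitters' processing notes name GRCm38.p4, Trimmomatic 0.36, Bowtie2 2.2.6 and SAMtools; the counting tool, the annotation release and the treatment of fragments matching several transcripts are not given in the sources used here. Long isoforms of a gene often carry nearly equal counts, so a fragment was taken to count once for each transcript it matched, and column sums then exceed the reads behind them. Columns were matched to replicates by number and by the words for control and RiboLace.

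A gene is the transcript with the highest summed count, the longer in a tie; symbols are transcript names without their suffix. Densities use the most counted protein-coding transcript, a choice made after the table was seen. The genes named are the 7 members and those partner genes averaging 10 or more counts; others are named for their low counts, and 1 listed gene is not reported here. Members and lists were chosen with earlier results of these data known. Scaling used TMM in edgeR 4.0.16 on genes averaging 10 or more counts. The 2-sided exact binomial test (SciPy 1.17.1) was adjusted by Benjamini-Hochberg over 5436 genes; log2 ratios use a pseudocount of 1 CPM. It was tested on simulated counts. A further edgeR test preset the coefficient of variation at 0.2, and DESeq2 1.42.0 gave alternative size factors. Ratio intervals are exact binomial, density intervals exact Poisson, shares Wilson, at 95%. Gene coordinates are those of RefSeq on GRCm38.p6, a later patch of the same build.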

Additional observations from a re-analysis of the deposited data

How the results depend on the processing

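No paired analysis was possible because the study has 1 group. The count of members that differ between the libraries stayed at 0, and that of partner genes at 0, under the alternatives of scaling, filter, pseudocount, isoform choice and preset variation, where the filter of 50 counts left 5 members and 9 partner genes to test, except that summing isoforms gave 1 member (Atp1b1) and 1 partner gene (Slc24a2). A sum counts fragments repeatedly by construction. Over all genes the 225 calls among 5436 became 605 among 8366 with summed isoforms, 131 among 5436 with preset variation and 75 among 764 with the filter of 50. Scaled on protein-coding genes alone, the 42 calls among 4392 such genes became 22. Library totals moved the median ratio (log2) over all genes to -0.20 and scaling without a count filter to -0.25. Under library totals the ratios of Atp2b1 and Atp2b2 turned to -0.20 and -0.13, and without the filter to -0.17 and -0.096. Over genes averaging 50 or more counts the ratio of Atp2b1 turned to -0.066. None of these passed the threshold; where no construction is named, the cause was not tested. The ratios of the other 5 genes kept their sign. The count of pairs separate in density was 15 in the main setting, 15 per transcript length and 16 with the longest coding isoform of each gene. The pairs per transcript length were not all the same. Atp1b2 with Atp2b1 was no longer separate, and Atp2b2 with Atp2b4 became separate. Judged per coding length by replicate 1 alone, the separate pairs numbered 19, and by replicate 2 alone 16. Such a count cannot fall below 15, because the main rule requires both libraries. Per transcript length each density fell outside the replicate SD. It had to be lower, since each transcript is longer than its coding sequence, so this does not bear on stability. The percentiles rose for all 7 genes under the looser count filter. The depth of replicate 2 limits Atp1b3 and Atp2b4 most, with 15 and 12 counts.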
